A study of Mus musculus with 6 samples.

Results

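The genes described are the receptors for the alarmins IL-33, IL-18, IL-25 and TSLP and the adaptors that carry the signal onwards. They were chosen by name: the receptor genes Il1rl1, Il1rap, Il18r1, Il18rap, Il17rb and Crlf2, and the signalling genes Myd88, Irak2, Irak4 and Traf6. All 10 were among the 17546 genes of the deposited count table, and all 10 passed the filter on low counts that left 13325 genes for testing. RNA was sequenced in bulk from ILC2s, the innate lymphoid cells of group 2, which lack antigen receptors and secrete type 2 cytokines. The cells came from lungs of BALB/c mice given intranasal recombinant IL-33, 3 doses of 1 µg each, and were kept in medium with 10 ng/mL each of IL-2 and IL-7. The 3 libraries Yoda1 4, 5 and 6 came from cells exposed for 24 h to 10 µM Yoda1, a small molecule that opens the mechanosensitive cation channel Piezo1. The 3 libraries DMSO 1, 2 and 3 came from cells given the solvent DMSO, which the deposited table itself calls PBS. Cells of both groups had therefore met IL-33 in the animal and were held in IL-2 and IL-7. The sources used here give no genotype, sex or age. They also do not say that each library had its own mouse or culture, so the p-values reflect only how far these libraries scatter, and that scatter may be technical.

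Alarmins are released by damaged or stimulated barrier cells and are the main activators of ILC2s. IL-33 binds ST2, the product of Il1rl1, and then recruits the accessory protein encoded by Il1rap. IL-18 binds the product of Il18r1 and recruits that of Il18rap. The cytoplasmic TIR domains of these chains bind the adaptor MyD88, which assembles the IRAK kinases, and TRAF6 then activates NF-kB and MAP kinases. The IL-25 receptor, built from the products of Il17rb and Il17ra, works through the adaptor Act1 and TRAF6 without MyD88. The TSLP receptor, built from the products of Crlf2 and Il7r, signals through JAK kinases and STAT5.

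Library totals ran from 15355158 to 17322050 counts with Yoda1 and from 14214048 to 31627519 with DMSO. The smallest count of any of the 10 genes in any library was 109. Levels are CPM, counts relative to the library total, scaled by TMM factors; a log2 fold change above 0 means higher with Yoda1. All 13 ILC2 markers examined passed the count filter. Gata3 lay between 781 and 1032 CPM in all libraries, while Thy1 reached at most 2.87 CPM. These markers were not all steady: Arg1 rose, and Icos and Il2ra fell (edgeR, Benjamini-Hochberg adjusted p = 0.0087 for Arg1, 0.0042 for Icos and 0.0071 for Il2ra). Arg1 averaged 463 CPM with Yoda1 and 243 CPM with DMSO, Icos 463 CPM with Yoda1 and 860.5 CPM with DMSO, and Il2ra 729 CPM with Yoda1 and 1160.5 CPM with DMSO. The whole ILC2 list summed to 11682 to 13062 CPM with Yoda1 and 10785 to 11510 CPM with DMSO, without overlap. The largest part of this sum was 1 cytokine gene, Il5. It was at 6960, 6932 and 8429 CPM in Yoda1 4, 5 and 6, against 5308, 5924 and 5932 CPM in DMSO 1, 2 and 3. The sum therefore mainly follows Il5 and does not give the direction of the other ILC2 markers. Of 9 lists of markers of other cells, those of T cells, B cells, ILC3s, and endothelium and stroma overlapped between groups in their summed level, and 5 did not overlap. Among all tested genes, taken singly, 22.6% did not overlap between groups. The T cell list, with 6 of 10 genes in the table, summed to 312 to 467 CPM with Yoda1 and 306 to 358 CPM with DMSO. Most of this was Trbc1 and Trbc2, which encode constant regions of the T cell receptor beta chain. Trbc1 averaged 127 CPM with Yoda1 and 99.2 CPM with DMSO, and Trbc2 225 CPM with Yoda1 and 195 CPM with DMSO. Cd3g averaged 24.1 CPM with Yoda1 and 31.5 CPM with DMSO, while Trac, Cd3d and Cd3e stayed at or below 2.69 CPM in each library. The other 3 overlapping lists each stayed at or below 41.2 CPM in every library. The epithelial list, with 9 of 11 genes in the table, summed to 55.2 to 77.7 CPM with Yoda1 and 91.0 to 422 CPM with DMSO. Its club cell gene Scgb1a1 was at 0, 0 and 0.0597 CPM in Yoda1 4, 5 and 6, against 0, 301.1 and 295 CPM in DMSO 1, 2 and 3. Epcam made up most of the sum in the Yoda1 libraries and in DMSO 1. It averaged 59.4 CPM with Yoda1 and 65.9 CPM with DMSO, with overlap. Sftpa1 stayed at or below 0.923 CPM with Yoda1, against 3.75, 21.3 and 21.7 CPM in DMSO 1, 2 and 3. Sftpc was at 15.2 CPM in DMSO 1 and at or below 0.568 CPM in every other library. The mast cell and basophil list, whose cells also carry ST2, had 7 of 10 genes in the table and summed to 37.4 to 40.6 CPM with Yoda1 and 43.8 to 60.2 CPM with DMSO, mostly from Kit. The macrophage and dendritic cell list, with 6 of 11 genes, summed to 84.5 to 94.7 CPM with Yoda1 and 70.4 to 78.7 CPM with DMSO. Most of this was Xcr1, which averaged 66.8 CPM with Yoda1 and 60.7 CPM with DMSO and overlapped between groups. Cd68 averaged 11.5 CPM with Yoda1 and 8.02 CPM with DMSO, with overlap. Lyz2 averaged 9.16 CPM with Yoda1 and 2.66 CPM with DMSO, without overlap (edgeR, Benjamini-Hochberg adjusted p = 0.172). Csf1r stayed at or below 0.331 CPM in each library. Adgre1 was at 0 in all Yoda1 libraries and at 0.0552, 1.67 and 1.27 CPM in DMSO 1, 2 and 3. The list of NK cells and ILC1s, which carry IL-18 receptors, had 4 of 8 genes in the table and summed to 13.0 to 17.6 CPM with Yoda1 and 36.0 to 62.4 CPM with DMSO. This was mostly 1 gene, Gzma, at 11.2, 11.8 and 14.9 CPM in Yoda1 4, 5 and 6, against 35.5, 58.7 and 50.02 CPM in DMSO 1, 2 and 3. Prf1 averaged 2.34 CPM with Yoda1 and 1.73 CPM with DMSO, and Eomes and Tbx21 stayed below 1 CPM in each library. The list of eosinophils and neutrophils, with 2 of 9 genes and nearly all of its sum from Ccr3, came to 5.19 to 6.92 CPM with Yoda1 and 8.74 to 11.98 CPM with DMSO. The part of these cells in the results was not tested. In bulk libraries, fewer cells of a type and less RNA per cell cannot be told apart.

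None of the 10 genes changed with Yoda1 at the threshold used, an adjusted p under 0.05 over the 13325 tested genes in the quasi-likelihood F test of edgeR with Benjamini-Hochberg adjustment. Across all tested genes that threshold called 1.49%, of which 0.57% were higher and 0.923% lower with Yoda1, so a list of this size with no call is near the background. At an unadjusted p under 0.05 there were 2 of the 10, Il17rb and Irak2, both higher with Yoda1, against 14.5% of all tested genes in either direction and 7.39% in this one. DESeq2 and limma voom each called 1 of the 10, Il17rb, against 6.56% of the genes DESeq2 tested and 2.25% of those limma voom tested. Of the 10 log2 fold changes 9 were positive, where 51% of all tested genes were, and their median was 0.20 against 0.01 over all tested genes. For 8 of the 10 the 95% interval of the change lay within a 2-fold change in either direction; the exceptions were Il17rb and Il18r1.

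**Figure D1:**
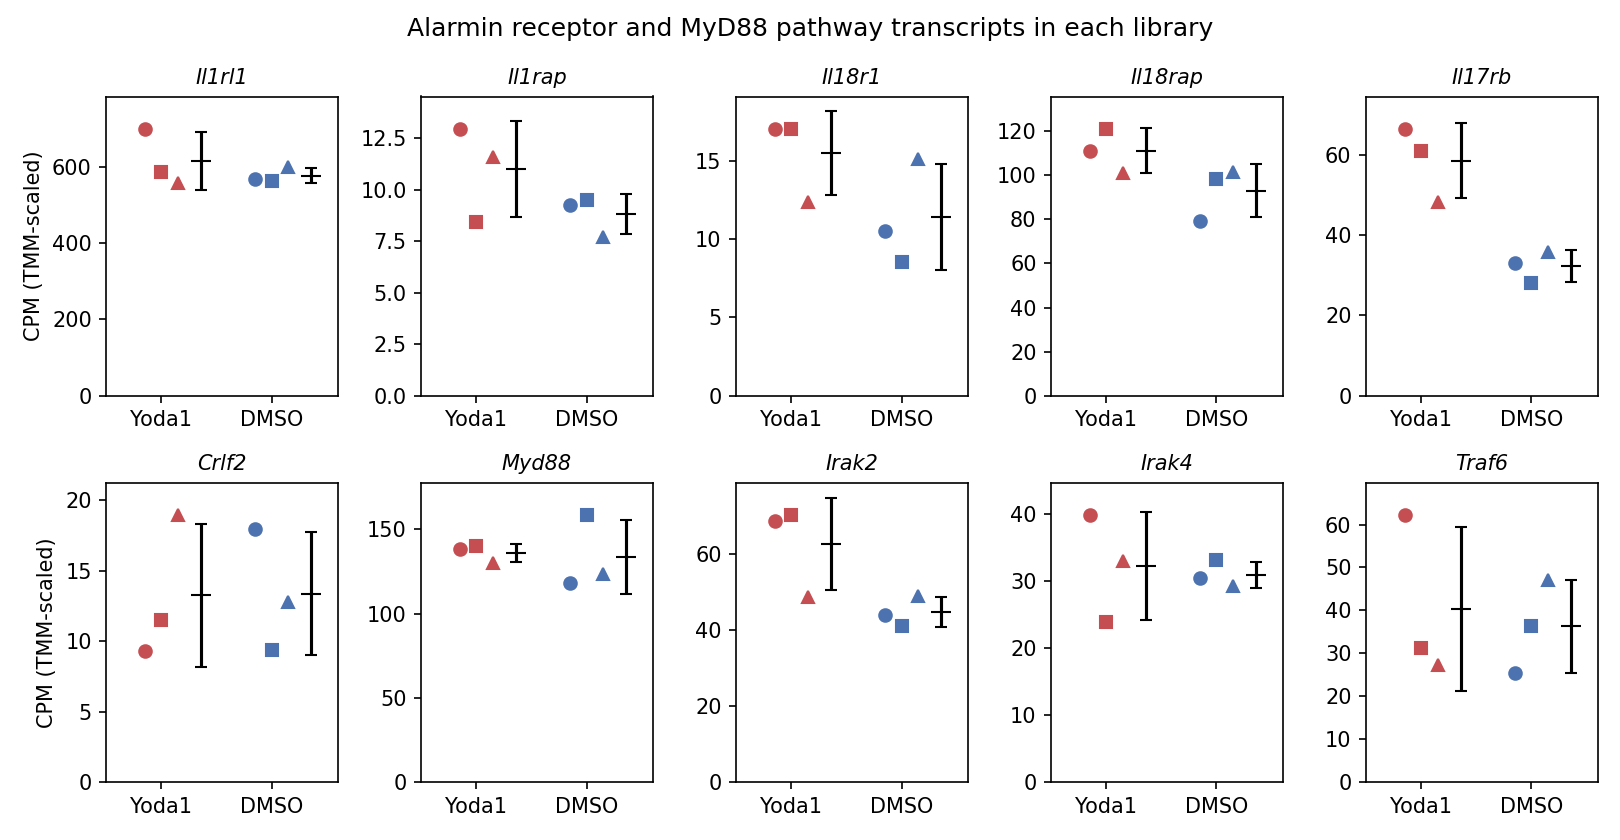
TMM-scaled CPM of each of the 10 genes in every library, each panel with its own axis from 0; coloured symbols are libraries in the order Yoda1 4, 5 and 6 and DMSO 1, 2 and 3, and the black mark and bar are the mean and SD of the 3 libraries. Il17rb is the panel in which the groups do not overlap; the lowest Yoda1 library is at 48.2 CPM and the highest DMSO library at 35.9 CPM.

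Il17rb encodes the IL-25-binding chain, and it was the gene of the 10 with the smallest p. Its level was 66.6, 60.9 and 48.2 CPM in Yoda1 4, 5 and 6, against 33.1, 28.1 and 35.9 CPM in DMSO 1, 2 and 3. Every Yoda1 library stood above every DMSO library, which held for 22.6% of all tested genes in either direction and 10.6% in this direction. The mean was 58.6 ± 9.41 CPM with Yoda1 and 32.4 ± 4.00 CPM with DMSO (SD, n = 3 each). The log2 fold change was 0.86 (SE 0.19, 95% interval 0.43 to 1.29), a fold of 1.81, and it did not pass (edgeR, Benjamini-Hochberg adjusted p = 0.0703). DESeq2 put the adjusted p at 0.000892 and limma voom at 0.0468, and a filter of 10 CPM in 3 libraries gave 0.0301 in edgeR, where 5.26% of genes were called. Leaving out Yoda1 6, the lowest of its group, gave 0.0482, with 1.57% of genes called. The other leave-one-out fits in edgeR gave adjusted p between 0.148 and 0.262, and the fit with libraries of a shared label number summed gave 0.314. Against DMSO 1 alone, the DMSO library without Scgb1a1, the log2 fold change was 0.82. DMSO 1 was not free of epithelial transcripts: it had Sftpc at 15.2 CPM, more than any other library. Il17rb lies on chromosome 14 at 29996135 to 30008896 on the minus strand (GRCm38). It overlaps Actr8, on the opposite strand, over 141 exonic bases, 3.80% of its exon length; the sources used here do not give the strand setting of the counting, so reads there cannot be assigned. Actr8 was at 68.9 ± 6.06 CPM with Yoda1 and 50.4 ± 12.2 CPM with DMSO (SD, n = 3 each; edgeR, Benjamini-Hochberg adjusted p = 0.344).

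Its promoter is shown because it belongs to the gene with the largest change of the 10. The 250 bases before the annotated Il17rb start are chr14:30008897-30009146 on the minus strand (RefSeq, GRCm38.p6), given 5′ to 3′ with the match to an AP-1 motif (TGANTCA) in capitals.
Il17rb: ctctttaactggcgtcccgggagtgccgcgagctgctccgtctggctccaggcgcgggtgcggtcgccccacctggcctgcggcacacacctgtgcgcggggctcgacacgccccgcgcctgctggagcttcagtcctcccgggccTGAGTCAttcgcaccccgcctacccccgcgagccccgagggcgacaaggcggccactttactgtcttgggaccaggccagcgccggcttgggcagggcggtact
Motifs were sought on both strands in the 250 bases before each of the 13 RefSeq starts of the 10 genes. The AP-1 motif was found before the Il17rb start and before no other of these starts, and it is present in 6.75% of all 32851 such windows. The Il17rb window held no match to the STAT motif (TTCNNNGAA), present in 7.02% of all windows, the GATA motif (GATAA), in 22.6%, or the NFAT motif (GGAAA), in 55.6%. These are matches of letters and not measured binding sites.

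The partner chain of Il17rb, Il17ra, which other IL-17 family receptors share, was measured with it. Il17ra was at 165, 132 and 137 CPM in Yoda1 4, 5 and 6, against 85.5, 105 and 97.1 CPM in DMSO 1, 2 and 3. Here too the groups did not overlap, and the log2 fold change of 0.59 (SE 0.14) did not pass (edgeR, Benjamini-Hochberg adjusted p = 0.0804); DESeq2, and edgeR with the 10 CPM filter, called it. Per gene length, the ratio of Il17rb to Il17ra transcripts was 0.949 ± 0.131 with Yoda1 and 0.798 ± 0.152 with DMSO (SD, n = 3 each), and it overlapped between groups (two-sided exact permutation test, p = 0.40). Traf3ip2, which encodes Act1, was at 48.4, 56.0 and 39.9 CPM in Yoda1 4, 5 and 6, against 37.0, 42.3 and 31.6 CPM in DMSO 1, 2 and 3, with overlap; it is named here as the adaptor of this receptor and not by the rule for naming genes.

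Il1rl1, the IL-33 receptor gene, had the highest level of the 10 and almost the same level in both groups. It was at 699.5, 585 and 556 CPM in Yoda1 4, 5 and 6, against 569, 562 and 598 CPM in DMSO 1, 2 and 3. Yoda1 4 was the highest library, and the other 5 lay within the span from 556 to 598 CPM. The log2 fold change was 0.09 (SE 0.10, 95% interval -0.14 to 0.32; edgeR, Benjamini-Hochberg adjusted p = 0.742), so folds above 1.25 or below 0.906 lie outside the interval. Without Yoda1 4 the log2 fold change was -0.015. Il1rl1 makes a membrane receptor and a shorter soluble decoy form. GENCODE M21 lists 5 coding transcripts for it, with coding lengths from 195 to 1701 bases, and the deposited counts pool them, so the forms cannot be told apart.

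Il1rl1 has a pair of RefSeq starts on chromosome 1, 10059 bases apart, shown because mast cells and T cells of rodents are known to use the distal one and fibroblasts the proximal one. The 250 bases before each start are at chr1:40429320-40429569 and chr1:40439379-40439628 on the plus strand (RefSeq, GRCm38.p6), with matches to the GATA motif (GATAA or its complement TTATC) in capitals.
Il1rl1 distal: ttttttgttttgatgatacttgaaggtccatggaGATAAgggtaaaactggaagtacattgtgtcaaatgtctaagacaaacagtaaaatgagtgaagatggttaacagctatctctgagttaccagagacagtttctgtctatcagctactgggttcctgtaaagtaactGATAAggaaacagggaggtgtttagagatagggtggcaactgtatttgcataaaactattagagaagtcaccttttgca
Il1rl1 proximal: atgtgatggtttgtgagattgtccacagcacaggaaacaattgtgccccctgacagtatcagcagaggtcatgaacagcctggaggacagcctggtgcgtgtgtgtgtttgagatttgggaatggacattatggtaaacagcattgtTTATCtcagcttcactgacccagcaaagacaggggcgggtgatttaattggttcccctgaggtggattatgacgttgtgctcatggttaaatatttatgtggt
The distal window held 2 matches and the proximal window 1, where 22.6% of all windows hold at least 1. Neither held the AP-1, STAT or NF-kB motif, and each held 1 match to the NFAT motif. GATA3, which binds this motif, is the lineage factor of ILC2s, and Gata3 was at 925 ± 129 CPM with Yoda1 and 963 ± 36.5 CPM with DMSO (SD, n = 3 each). The counts are per gene and do not say which start was used.

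Il1rap, the accessory chain for IL-33 and IL-1, was the lowest of the 10 per gene length. Its level was 13.0, 8.42 and 11.6 CPM in Yoda1 4, 5 and 6, against 9.27, 9.50 and 7.71 CPM in DMSO 1, 2 and 3. The groups overlapped through Yoda1 5, and the log2 fold change of 0.31 (SE 0.29) did not pass (edgeR, Benjamini-Hochberg adjusted p = 0.678). Per gene length, Il1rl1 transcripts exceeded Il1rap transcripts 94.1 ± 18.2-fold with Yoda1 and 109 ± 16.5-fold with DMSO (SD, n = 3 each; two-sided exact permutation test, p = 0.40). The size of this ratio rests on the length used: with the longest coding transcript of each gene in place of all exons it was 48.7 with Yoda1 and 56.3 with DMSO.

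Transcripts of the IL-18 receptor chains were unequal in level. Il18r1, the IL-18-binding chain, was at 17.0, 17.1 and 12.4 CPM in Yoda1 4, 5 and 6, against 10.5, 8.52 and 15.1 CPM in DMSO 1, 2 and 3. DMSO 3 stood above Yoda1 6, so the groups overlapped, and the log2 fold change was 0.45 (SE 0.30; edgeR, Benjamini-Hochberg adjusted p = 0.542). Il18rap, the signalling chain, was at 111, 121 and 101 CPM in Yoda1 4, 5 and 6, against 79.4, 98.5 and 101 CPM in DMSO 1, 2 and 3. DMSO 3 lay just above Yoda1 6, and the log2 fold change was 0.26 (SE 0.14; edgeR, Benjamini-Hochberg adjusted p = 0.456). The ratio of Il18r1 to Il18rap transcripts per gene length was 0.195 ± 0.0213 with Yoda1 and 0.172 ± 0.0457 with DMSO (SD, n = 3 each; two-sided exact permutation test, p = 0.60). Per gene length, Il18r1 transcripts were thus below those of Il18rap in each of the 6 libraries.

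Crlf2, the TSLP-binding chain, varied more within groups than between them. It was at 9.29, 11.5 and 19.0 CPM in Yoda1 4, 5 and 6, against 18.0, 9.34 and 12.8 CPM in DMSO 1, 2 and 3. The highest and the lowest library were both Yoda1 libraries, and the log2 fold change was -0.01 with a 95% interval of -0.83 to 0.80 (edgeR, Benjamini-Hochberg adjusted p = 0.993). Its sign changed in 5 of 15 alternative fits. Its partner Il7r, which also serves IL-7, the cytokine in the culture medium, was at 111, 95.1 and 94.7 CPM in Yoda1 4, 5 and 6, against 136, 169 and 161 CPM in DMSO 1, 2 and 3. The Yoda1 libraries all lay below the DMSO libraries, and the log2 fold change of -0.63 (SE 0.13) did not pass (edgeR, Benjamini-Hochberg adjusted p = 0.0611). DESeq2, limma voom, upper quartile scaling and the filter of 10 CPM each called it lower. The ratio of Crlf2 to Il7r per gene length was 0.421 ± 0.186 with Yoda1 and 0.278 ± 0.122 with DMSO (SD, n = 3 each; two-sided exact permutation test, p = 0.40). The smallest p these tests allow with 3 against 3 is 0.10, and over the 4 receptor pairs every Benjamini-Hochberg adjusted p was at least 0.533.

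**Figure D2:**
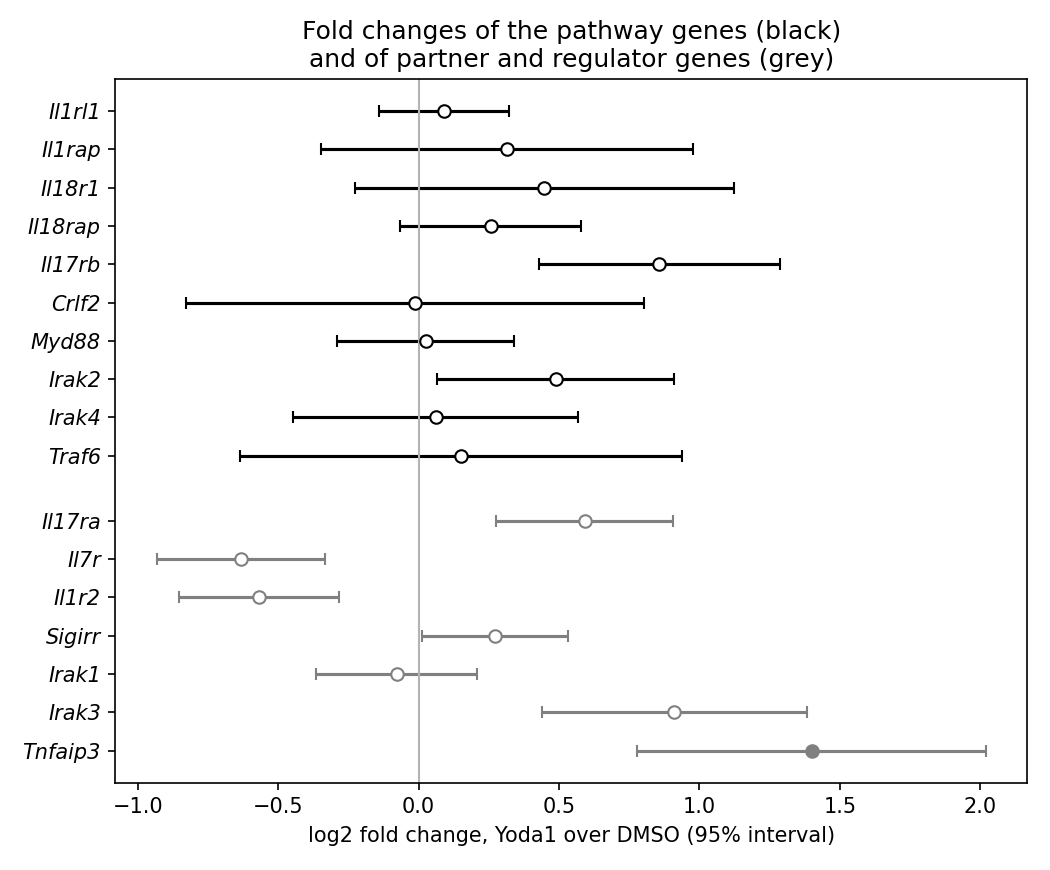
Log2 fold change of Yoda1 over DMSO with its 95% interval for the 10 genes in black and for partner and regulator genes in grey; a filled symbol marks an adjusted p under 0.05. Il17rb and Irak2 have intervals above 0 but are open, and Tnfaip3, at 1.40, is the filled symbol.

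Among the signalling genes, Myd88, the adaptor shared by the IL-33 and IL-18 receptors, was at 138, 139.9 and 129.9 CPM in Yoda1 4, 5 and 6, against 118, 159 and 124 CPM in DMSO 1, 2 and 3. All Yoda1 libraries lay inside the range of the DMSO libraries, and the log2 fold change was 0.03 (95% interval -0.29 to 0.34; edgeR, Benjamini-Hochberg adjusted p = 0.961). Its sign changed in 4 of 15 alternative fits, among them upper quartile scaling. Myd88 shares 11.3% of its exon length with Acaa1a on the opposite strand.

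Irak2, a kinase-like scaffold of the complex that MyD88 builds, was at 68.9, 70.5 and 48.8 CPM in Yoda1 4, 5 and 6, against 44.1, 41.1 and 49.0 CPM in DMSO 1, 2 and 3. Yoda1 4 and 5 stood above all DMSO libraries and Yoda1 6 lay just below DMSO 3. The log2 fold change was 0.49 (SE 0.19), with an unadjusted p of 0.0279 and an adjusted p of 0.271 (edgeR, Benjamini-Hochberg adjustment). No alternative fit called it; the smallest adjusted p was 0.0889, without Yoda1 6.

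Irak4, the kinase that starts the IRAK cascade, was at 39.8, 23.8 and 33.0 CPM in Yoda1 4, 5 and 6, against 30.4, 33.0 and 29.2 CPM in DMSO 1, 2 and 3. The Yoda1 libraries reached beyond the DMSO libraries on both sides, with a log2 fold change of 0.06 (SE 0.22; edgeR, Benjamini-Hochberg adjusted p = 0.940). It shares 7.87% of its exon length with Twf1 on the opposite strand. Traf6, the ubiquitin ligase below the IRAK kinases and Act1, was at 62.3, 31.2 and 27.3 CPM in Yoda1 4, 5 and 6, against 25.4, 36.3 and 46.98 CPM in DMSO 1, 2 and 3. Yoda1 4 was the highest library, and the other 5 were intermixed. The log2 fold change was 0.15 (SE 0.35, 95% interval -0.63 to 0.94; edgeR, Benjamini-Hochberg adjusted p = 0.890), and without Yoda1 4 it was -0.31.

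Levels can be ordered between genes once divided by exon length. In mean CPM per kb over the 6 libraries the order was Il1rl1 at 86.3, Myd88 at 52.3, Il18rap at 15.1, Il17rb at 12.3, Irak2 at 12.2, Crlf2 at 8.91, Irak4 at 6.28, Traf6 at 4.85, Il18r1 at 2.79 and Il1rap at 0.872. Il1rl1 stood above Myd88, and Myd88 above Il18rap, in each of the 6 libraries with no overlap of their ranges. From Il18rap down to Traf6 each gene's range over libraries overlapped that of the next, and the order of neighbours was not the same in every library, so those neighbours did not differ beyond their spread. The ranges of Traf6 and Il18r1 overlapped too, but Traf6 was above Il18r1 in each of the 6 libraries. With all exons as the length, Il1rap stood apart below Il18r1, with no overlap. The longest coding transcript was chosen as an alternative length after seeing the data. By it Il17rb at 21.7 passed Il18rap at 20.9, and the rest of the order of means was as before. The gap below Il18r1 rests on the length, as by this alternative the 2 genes lay closer. Il1rap was then at 2.43 ± 0.515 with Yoda1 and 1.95 ± 0.215 with DMSO. Il18r1 was at 3.73 ± 0.645 with Yoda1 and 2.74 ± 0.816 with DMSO (SD, n = 3 each). Il17rb was level with Irak2 over all libraries, but its CPM per kb was 15.8 ± 2.54 with Yoda1 and 8.73 ± 1.08 with DMSO, while Irak2 had 14.2 ± 2.74 with Yoda1 and 10.1 ± 0.894 with DMSO (SD, n = 3 each).

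**Figure D3:**
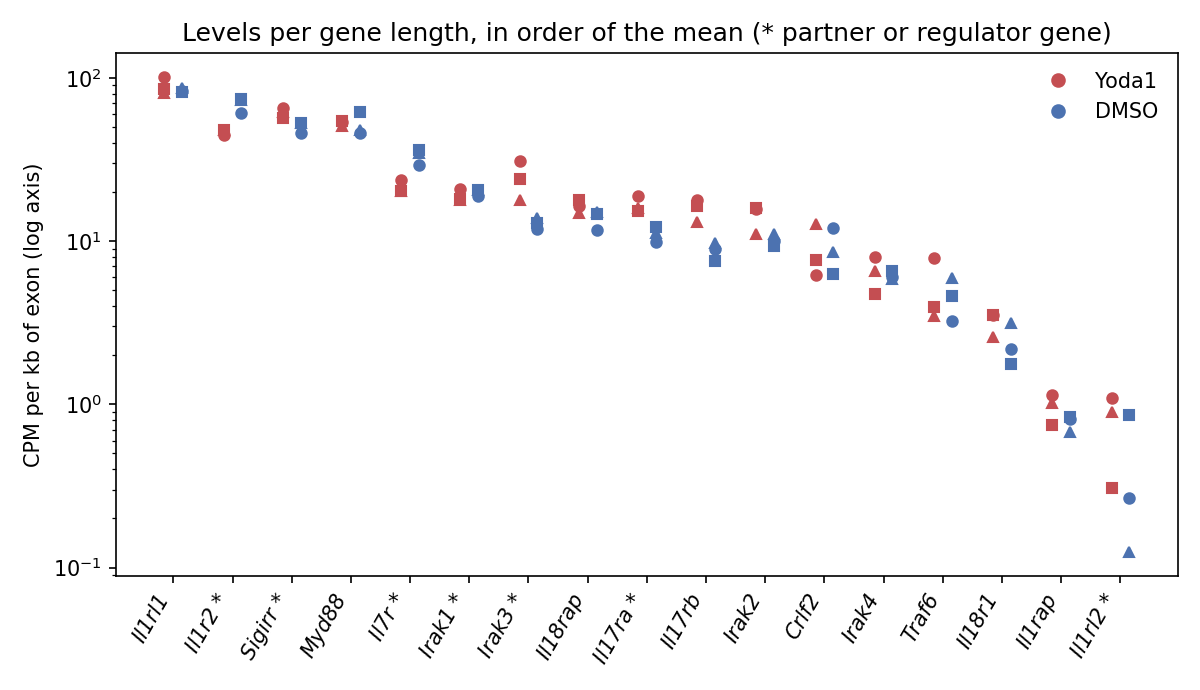
CPM per kb of exon on a log axis for the 10 genes and, marked with an asterisk, partner and regulator genes, ordered by the mean over all libraries; each symbol is a library, with Yoda1 left of DMSO. Il1rl1 and Myd88 lead the 10 genes at 86.3 and 52.3 CPM per kb, and Il1rap is the lowest at 0.872.

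The IL-33 and IL-18 receptor genes are neighbours in a cluster of IL-1 receptor family genes on chromosome 1, from Il1r2 at 40074079 to the end of Il18rap at 40551705 (GRCm38). Il1rl1 ends 136 bases before Il18r1 starts, and 14507 bases lie between Il18r1 and Il18rap. Neighbours differed widely in level. In CPM per kb, Il1rl1 had 89.0 ± 11.0 with Yoda1 and 83.6 ± 2.75 with DMSO, whereas adjacent Il18r1 had 3.22 ± 0.557 with Yoda1 and 2.37 ± 0.704 with DMSO (SD, n = 3 each). Il1r1, the signalling IL-1 receptor, did not pass the count filter: it was at 0.387, 0 and 0 CPM in Yoda1 4, 5 and 6, against 0.883, 0 and 0 CPM in DMSO 1, 2 and 3. Il1rl2, the IL-36 receptor, was low, at 0.766 ± 0.410 CPM per kb with Yoda1 and 0.416 ± 0.388 with DMSO (SD, n = 3 each). Il1r2, the decoy receptor for IL-1, was at 84.9, 91.2 and 91.4 CPM in Yoda1 4, 5 and 6, against 116, 141 and 139 CPM in DMSO 1, 2 and 3. It was lower in each Yoda1 library than in any DMSO library, and the log2 fold change of -0.57 (SE 0.13) did not pass (edgeR, Benjamini-Hochberg adjusted p = 0.0705). DESeq2 called it lower, as did edgeR with upper quartile factors and with the 10 CPM filter. The flanking kinase gene Map4k4 had a log2 fold change of -0.72 (SE 0.22; edgeR, Benjamini-Hochberg adjusted p = 0.163). Of the 8 tested genes of this stretch none passed, and before adjustment p was under 0.05 for 2, both lower, beside 14.5% of all tested genes. Beyond Il18rap, Slc9a2 had 0.395 ± 0.118 CPM per kb with Yoda1 and 0.224 ± 0.388 with DMSO, and Mfsd9 had 0.941 ± 0.829 with Yoda1 and 0.716 ± 0.257 with DMSO (SD, n = 3 each).

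**Figure D4:**
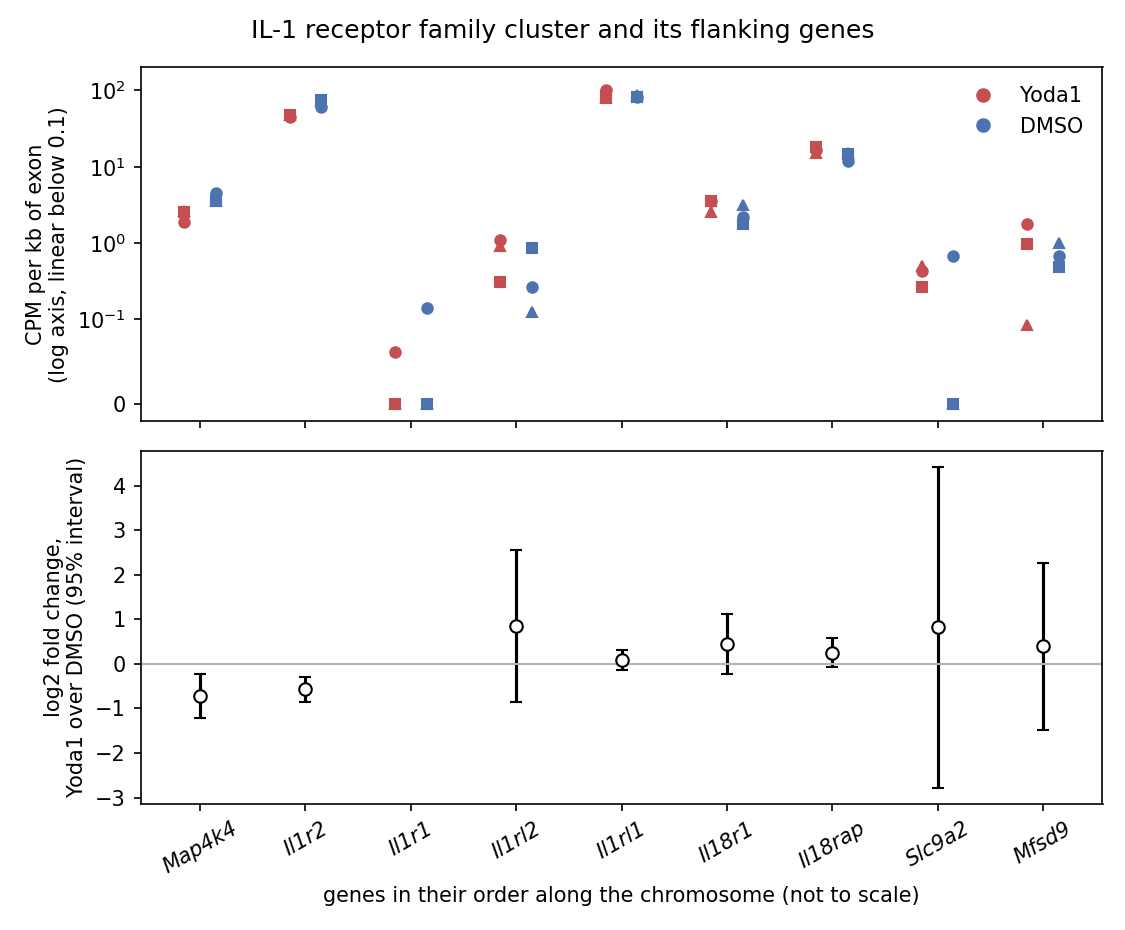
Genes of the chromosome 1 receptor cluster in their order along the chromosome, not to scale: above, CPM per kb of exon in each library on a log axis that is linear below 0.1, with Yoda1 left of DMSO; below, the log2 fold change of Yoda1 over DMSO with its 95% interval (Il1r1 was not tested). Il1rl1 is high, at 89.0 CPM per kb with Yoda1 and 83.6 with DMSO, between the low neighbours Il1rl2 and Il18r1.

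The other genes of these pathways were taken from lists of receptors, ligands, adaptors and regulators. Of 114 listed genes beside the 10, 90 were in the table and 83 were tested; 2 rose, Sqstm1 and Tnfaip3, and 81 did not pass, with 1.49% of all tested genes called. None was called lower in that fit, while edgeR with upper quartile factors called 2 lower, Il1r2 and Il7r, and with the 10 CPM filter 3 lower, these and Socs1, named after its values were seen. Before adjustment, 14 were higher and 8 lower with p under 0.05, against 7.39% higher and 7.11% lower of all tested genes. DESeq2 called 13 of the listed genes, 9 higher and 4 lower, against 6.56% of all genes it tested. The median log2 fold change of the 83 was 0.11, against 0.01 over all tested genes.

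Of 22 negative regulators, all tested, 1 rose and 21 did not pass, with a median of 0.19. Before adjustment, p was under 0.05 for 6 that were higher and 2 that were lower, beside 7.39% and 7.11% of all tested genes. Socs1 was called lower by DESeq2 and, in edgeR, with the 10 CPM filter and without Yoda1 6. The member that rose was Tnfaip3, which encodes A20, an enzyme that edits ubiquitin on TRAF6 and other signalling proteins and is itself induced by NF-kB. Tnfaip3 was at 43.2, 30.7 and 40.6 CPM in Yoda1 4, 5 and 6, against 19.3, 13.7 and 10.3 CPM in DMSO 1, 2 and 3. Its log2 fold change was 1.40 (SE 0.27), with an adjusted p of 0.0493 (edgeR, Benjamini-Hochberg adjustment). It lay close to the threshold: library totals as the scaling, upper quartile scaling, no filter, and each left-out library gave an adjusted p above 0.05. Irak3, named here after its values were seen, encodes IRAK-M, which holds back the IRAK cascade in macrophages. Irak3 was at 114, 87.8 and 65.5 CPM in Yoda1 4, 5 and 6, against 43.8, 47.7 and 50.9 CPM in DMSO 1, 2 and 3, without overlap. Its log2 fold change of 0.91 (SE 0.21) did not pass (edgeR, Benjamini-Hochberg adjusted p = 0.0750). DESeq2 called it higher, as did edgeR with the 10 CPM filter and without Yoda1 6. Tnfaip8l2, also named after its values were seen, had a smaller p than Irak3 and did not pass either. Its log2 fold change was 0.59 (SE 0.13; edgeR, Benjamini-Hochberg adjusted p = 0.0643). Tnfaip8l2 was called higher by DESeq2, by limma voom and by edgeR with the 10 CPM filter. Irak1, named as the remaining kinase of the family, was at 98.2, 85.3 and 84.1 CPM in Yoda1 4, 5 and 6, against 89.2, 96.9 and 96.2 CPM in DMSO 1, 2 and 3, which overlapped.

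Of 24 genes for the steps from IRAK and TRAF6 to TAK1 and IKK, 21 were tested; 1 rose and 20 did not pass, with a median of 0.09. Before adjustment, p was under 0.05 for 4 that were higher and 3 that were lower, beside 14.5% of all tested genes in either direction. The one that rose, Sqstm1, encodes p62, a scaffold that binds TRAF6 and also a cargo receptor of autophagy. Sqstm1 was at 1829, 1879 and 1816 CPM in Yoda1 4, 5 and 6, against 798, 799 and 744 CPM in DMSO 1, 2 and 3. Its log2 fold change was 1.24 (SE 0.07; edgeR, Benjamini-Hochberg adjusted p = 0.000183), and it passed in 13 of 15 alternative fits, the exceptions being the summed libraries and DMSO 1 alone.

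Of 3 tested IL-1 family receptors outside the 10 none passed in edgeR as fitted here. At an unadjusted p under 0.05 there were 1 higher, Sigirr, and 1 lower, Il1r2, beside 14.5% of all tested genes. The groups did not overlap for these 2, beside 22.6% of all tested genes. Il1r2 is described above. Sigirr, an inhibitory member of the family, was at 186 ± 13.5 CPM with Yoda1 and 154 ± 12.4 CPM with DMSO (SD, n = 3 each, edgeR, Benjamini-Hochberg adjusted p = 0.316). None of 10 tested partners of the IL-25 and TSLP receptors passed in edgeR as fitted here, although before adjustment p was under 0.05 for 1 that was higher and 2 that were lower, beside 14.5% of all tested genes. Il7r and Il17ra passed under the alternative settings given with their values. Of 17 ligands and soluble antagonists 6 had a column in the table and 3 were tested, with none past the test in edgeR or at an unadjusted p under 0.05. The alarmin-like nuclear protein gene Hmgb1 was at 1196 ± 172 CPM with Yoda1 and 1342 ± 81.9 CPM with DMSO (SD, n = 3 each), and Il18bp, the soluble inhibitor of IL-18, averaged 0.795 ± 1.33 CPM with Yoda1 and 1.11 ± 0.529 CPM with DMSO (SD, n = 3 each).

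None of 9 tested Toll-like receptor and TIR adaptor genes passed in edgeR or had an unadjusted p under 0.05. Cd14, a co-receptor for bacterial lipid, was at 6.71, 3.40 and 0.179 CPM in Yoda1 4, 5 and 6, against 1.27, 1.36 and 1.06 CPM in DMSO 1, 2 and 3, and Tirap, which bridges MyD88 to some Toll-like receptors, at 7.17 ± 1.53 CPM with Yoda1 and 10.7 ± 5.14 CPM with DMSO (SD, n = 3 each). None of 17 MAP kinase genes passed in edgeR, and DESeq2 called 1, Map2k1; before adjustment, p was under 0.05 for 3 that were higher and 1 that was lower, beside 14.5% of all tested genes. The smallest p among them were those of Map2k1, a kinase of the ERK branch, at 179 ± 2.75 CPM with Yoda1 and 148 ± 5.94 CPM with DMSO, and of Mapkapk3, a kinase below p38, at 331 ± 49.0 CPM with Yoda1 and 264 ± 14.2 CPM with DMSO (SD, n = 3 each).

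**Figure D5:**
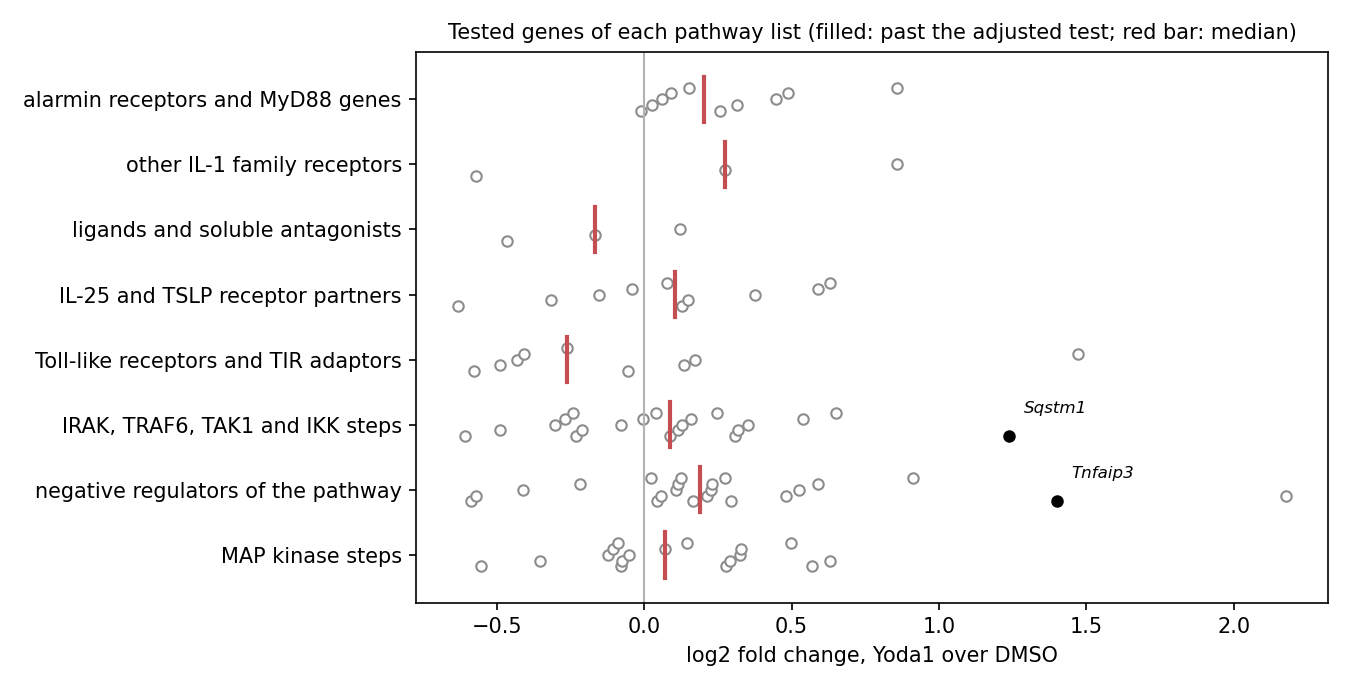
Log2 fold change of Yoda1 over DMSO for each tested gene of the pathway lists, with a red bar at each list's median; filled symbols passed the adjusted test over all genes. Sqstm1 at 1.24 and Tnfaip3 at 1.40 are the filled symbols, and the 10 alarmin receptor and MyD88 genes, in the top row, are all open.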

How the data were processed

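Bulk RNA-seq libraries of isolated lung ILC2s were compared, 3 exposed to Yoda1 and 3 to DMSO. The deposited values are expected counts, that is estimated reads per gene that need not be whole, from the Partek software per the deposited table's name and on the mouse build mm10 per the submitters' processing notes; aligner, counting method, strand setting and annotation: not given in the sources used here. Between 57.1% and 66.5% of a library's values were whole within 0.001, and every gene totalled at least 10 over the libraries. The 3 counts that serve as the detection floor equal 0.0949 to 0.211 CPM, for counting error only.

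Counts were rounded and tested with edgeR 4.0.16 in R 4.3.3: filterByExpr kept genes by its defaults (minimum count 10, total 15), TMM set the scaling, and glmQLFit with glmQLFTest gave the quasi-likelihood test with no covariate. A call is a Benjamini-Hochberg p under 0.05 over all tested genes. Standard errors are the log2 fold change divided by the square root of F. As alternatives served other scalings, DESeq2 1.42.0, limma 3.58.1 voom, other filters, libraries of a shared label number summed, and each library left out. Exon lengths and positions came from GENCODE M21 (GRCm38, the build also called mm10), promoters from RefSeq. Libraries of a group differed beyond sampling noise (chi-square over its degrees of freedom at least 19.3). The label numbers shared by DMSO 2 and 3 and by Yoda1 4 and 5 may mark samples that are not independent.

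The genes, lists and tests were chosen with earlier results of these data known. From each list the text names genes past the threshold, up to 6, or otherwise the 2 with the smallest p, and all genes of the receptor cluster; other genes are said to be named outside this rule or mark a cell type.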

Additional observations from a re-analysis of the deposited data

How the results depend on the processing

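None of the 10 alarmin receptor and MyD88 genes passed in the edgeR fit as reported; 1 passed, Il17rb in each case, with DESeq2, with limma voom and with a filter of 10 CPM in 3 libraries, and 0 to 1 with each library left out. Its log2 fold change stayed between 0.76 and 0.98 in all 15 alternatives. Over all genes the count of 199 became 926 with DESeq2, 300 with limma voom, 448 with the 10 CPM filter, 1 with libraries of a shared label number summed, and 0 with DMSO 1 alone against Yoda1, an alternative added after seeing the data that removes the libraries with Scgb1a1. Leaving out a library gave 9 to 220 genes; it was 9, 22 and 34 without DMSO 3, 2 and 1 and 34 without Yoda1 5. The 2 calls among the pathway lists became 1 with library totals or no filter, 3 with upper quartile factors (Sqstm1 higher, Il1r2 and Il7r lower, without Tnfaip3), 13 with DESeq2, 4 with limma voom, 9 with the 10 CPM filter, 0 with summed libraries or DMSO 1 alone, and 1 to 3 with a library left out. Fits with fewer libraries have fewer degrees of freedom, and the fit with DMSO 1 alone takes it to vary as the Yoda1 libraries do.

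Signs turned for 5 of the 10 genes. With a library left out, the log2 fold change ran from -0.015 to 0.16 for Il1rl1, from -0.12 to 0.24 for Irak4 and from -0.31 to 0.37 for Traf6, with the lowest value of each without Yoda1 4, and Traf6 was also below 0 without DMSO 1. It ran from -0.36 to 0.26 for Crlf2, which was above 0 without Yoda1 4, Yoda1 5 or DMSO 1, and from -0.054 to 0.17 for Myd88, which was below 0 without DMSO 1 or DMSO 3. Crlf2 was at 0.048 with limma voom and 0.045 with summed libraries. Myd88 was at -0.028 with upper quartile factors and -0.0095 with the 10 CPM filter, under which Il1rap was not tested. None of these values passed. The cause of these differences was not tested. No paired analysis was possible because the libraries of the groups carry different numbers, 1 to 3 and 4 to 6. Il1rap, Il18r1 and Crlf2 had the lowest counts of the 10 genes, with smallest counts of 109, 191 and 144. The standard errors of their log2 fold changes were 0.291, 0.296 and 0.359. Traf6, whose smallest count was 457, had 0.346, and the other genes of the 10 had at most 0.223. How far depth limits these genes was not tested.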
